A study of Homo sapiens with 4 samples.

Results

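The genes described here encode the proteins of the mitochondrial ribosome. They are the rows of the count table whose Ensembl identifier maps to a protein-coding symbol that starts with MRPL or MRPS and goes on with a digit. This rule found 78 genes among 20515 rows, 49 of them named for the large subunit (MRPL) and 29 for the small subunit (MRPS). The rule reads symbols only, and all 78 genes had enough counts to be tested.

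The study measured poly(A) RNA of T47D, an established breast carcinoma cell line of luminal type. The 4 libraries came from 2 control samples and 2 samples treated with baicalein, a flavonoid from the roots of Scutellaria that is known as a lipoxygenase inhibitor. Its dose, duration and vehicle are not given in the sources used for this work. The labels do not say whether a group's libraries are separate cultures, and p-values reflect only how far these samples spread, which may be technical.

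Mitochondrial ribosomes translate the few mRNAs that mitochondrial DNA encodes, all of them for subunits of the respiratory chain and ATP synthase. Their rRNAs are transcribed in the organelle, whereas every one of their proteins is encoded in the nucleus, made in the cytosol and imported. The small subunit binds the mRNA and reads its codons, and the large subunit forms the peptide bonds and releases the chain through a tunnel towards the inner membrane. Some of the proteins have counterparts in bacterial ribosomes and others are found only in mitochondria.

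Total counts ranged from 38597207 to 56732569 per library, and 1 CPM, the unit of library-scaled counts used here (with TMM factors), stood for 37.2 to 54.7 counts. Libraries of a group correlated at r = 0.9945 and 0.9946 over the log2 CPM of genes, and libraries of different groups at 0.9318 to 0.9357. Counts of the 78 genes ranged from 49 to 7932 in a library. MRPL23 was the least counted, and the next lowest count of any other gene was 362. The median coefficient of variation between the 2 libraries of a group was 2.87% in controls and 1.99% after baicalein, and the highest were 10.3% for MRPL23 in controls and 14.7% for MRPL33 after baicalein. The luminal markers were present in both groups, among them KRT8 at a mean of 5160 CPM in controls and 2220 CPM after baicalein and ESR1 at 177 and 38.5 CPM. Of other cell types, PTPRC of leukocytes stood at 0 and 0.126 CPM, COL1A2 of fibroblasts at 0.106 and 0.00914 CPM, COL1A1 at 95.2 and 145 CPM and TP63 of basal cells at 5.04 and 0.348 CPM; KRT5, KRT14, PDGFRB, CD3E, PECAM1 and VWF were not analysed here. The part of these markers in the results was not tested.

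Levels of most mitoribosomal protein mRNAs were modestly lower after baicalein. In edgeR's quasi-likelihood F test, with p-values adjusted by Benjamini-Hochberg over 18369 genes, 50 of the 78 fell, 14 rose and 14 did not pass the threshold of 0.05. Of the 78, 64.1% were called lower, where 37.6% of all tested genes were, and 17.9% were called higher, where 37.4% of all tested genes were. Among tested protein-coding genes alone, 41.9% were called lower and 39.2% higher. Their median log2 fold change (baicalein over control) was -0.22, with quartiles of -0.39 and -0.03. Over all tested genes the median was 0.00 and the quartiles were -0.61 and 0.54. The members therefore lay in a narrower range than the rest of the transcriptome, most of it below 0.

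Few of these changes were large. In edgeR's test against a 1.5-fold change, 2 members passed as higher (MRPS6 and MRPS10) and 3 as lower (MRPS34, MRPL16 and MRPL39), where 16.8% of all tested genes passed as higher and 19.5% as lower. Both treated libraries lay on one side of both controls in 72 of the 78 genes, and in 86.9% of all tested genes. The 6 genes whose groups overlapped were MRPL1, MRPL49, MRPS15, MRPS18A, MRPS18C and MRPS22.

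**Figure D1:**
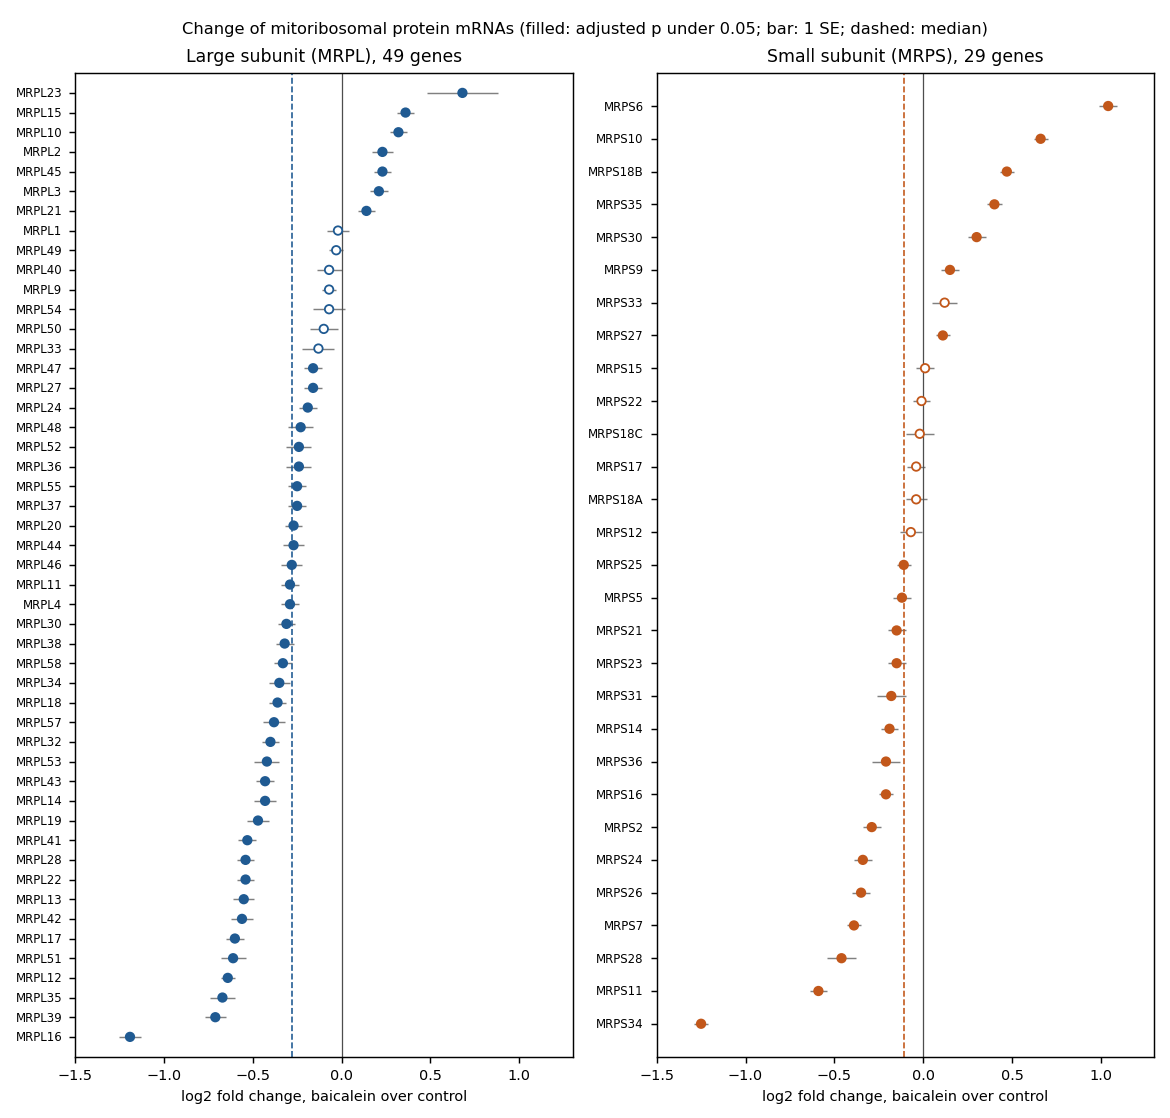
Log2 fold change of each mitoribosomal protein gene, baicalein over control, for the large subunit (left, 49 genes) and the small subunit (right, 29 genes). Filled points passed an adjusted p of 0.05, bars are 1 SE and dashed lines mark the medians of -0.28 and -0.11; MRPL16 and MRPS34 lie lowest and MRPS6 highest.

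Many mitoribosomal protein genes are known to share short promoter elements, so the promoters of the 2 genes with the largest falls (MRPS34 and MRPL16) and of the 2 that rose past a 1.5-fold change (MRPS6 and MRPS10) are shown. The windows run from 250 bases before to 50 bases after the start of each gene in RefSeq (GRCh38.p14) and are printed 5′ to 3′ on the strand of the gene. Capitals mark matches, on either strand, to CCGGAAG (a core of the sites of ETS factors such as GABPA; CTTCCGG on the other strand) and AAGATGGC (a core of the site of YY1). The windows lie at chr16:1773085-1773384 (minus strand, MRPS34), chr11:59810729-59811028 (minus strand, MRPL16), chr21:34073328-34073627 (plus strand, MRPS6) and chr6:42217812-42218111 (minus strand, MRPS10).
MRPS34: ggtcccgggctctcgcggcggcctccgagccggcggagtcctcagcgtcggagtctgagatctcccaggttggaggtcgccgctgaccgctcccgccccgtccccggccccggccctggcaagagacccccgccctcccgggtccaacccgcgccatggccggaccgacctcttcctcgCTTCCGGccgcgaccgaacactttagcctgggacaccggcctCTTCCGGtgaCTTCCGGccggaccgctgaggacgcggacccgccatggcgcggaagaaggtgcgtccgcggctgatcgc
MRPL16: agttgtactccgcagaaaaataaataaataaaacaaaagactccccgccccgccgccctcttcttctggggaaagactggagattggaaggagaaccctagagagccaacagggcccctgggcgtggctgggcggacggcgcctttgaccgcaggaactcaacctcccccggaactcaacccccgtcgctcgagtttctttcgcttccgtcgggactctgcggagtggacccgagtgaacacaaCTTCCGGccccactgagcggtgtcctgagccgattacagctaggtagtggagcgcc
MRPS6: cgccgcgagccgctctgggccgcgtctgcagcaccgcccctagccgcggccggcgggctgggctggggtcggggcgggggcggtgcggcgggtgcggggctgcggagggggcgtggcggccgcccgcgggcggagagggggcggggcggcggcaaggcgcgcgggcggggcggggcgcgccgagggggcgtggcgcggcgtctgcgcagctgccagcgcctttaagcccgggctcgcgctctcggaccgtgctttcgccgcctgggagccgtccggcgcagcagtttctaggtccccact
MRPS10: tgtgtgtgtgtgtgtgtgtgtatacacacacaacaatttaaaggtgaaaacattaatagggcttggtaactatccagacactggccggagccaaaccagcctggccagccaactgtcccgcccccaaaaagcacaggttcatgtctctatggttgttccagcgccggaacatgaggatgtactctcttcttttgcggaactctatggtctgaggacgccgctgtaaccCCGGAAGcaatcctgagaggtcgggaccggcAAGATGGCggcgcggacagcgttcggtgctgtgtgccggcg
The window of MRPS34 held 3 ETS matches and that of MRPL16 held 1. MRPS10 held 1 ETS match and 1 YY1 match close to its start, and MRPS6 held neither. GC content was 73.7% for MRPS34, 59.0% for MRPL16, 82.0% for MRPS6 and 54.7% for MRPS10.

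Such windows were matched for 69 of the 78 genes. The ETS core was found in 42.0% of them and in 12.8% of 22199 protein-coding windows of the same length. The YY1 core was found in 20 of the 69 windows against 3.53% of the protein-coding ones, the core GCGCATGC of the site of NRF1 in 8.70% against 3.74%, and the E-box CACGTG in 8.70% against 8.34%. None of the 4 letter strings was found in 25 of the 69 windows. The ETS core stood in 40.5% of the large subunit windows and 44.4% of the small subunit windows, and the YY1 core in 28.6% and 29.6%. The NRF1 core stood in 9.52% and 7.41%, and the E-box in 5 of 42 large subunit windows and 1 of 27 small subunit windows. The ETS core stood in 19 of 46 windows of genes that fell, 2 of 9 of genes that rose and 8 of 14 of the rest, and the YY1 core in 12, 5 and 3 of them. These matches describe letters in a window and were not tested against the changes.

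The subunits were compared by their counts and medians. Of all tested genes, 37.6% fell and 37.4% rose. Of the 49 MRPL genes, 35 fell (71.4%), 7 rose (14.3%) and 7 did not pass the test. Their median log2 fold change was -0.28 (quartiles -0.43 and -0.10). Of the 29 MRPS genes, 15 fell (51.7%), 7 rose (24.1%) and 7 did not pass, with a median of -0.11 (quartiles -0.21 and 0.11). The shares of the MRPS genes thus lay nearer those of all tested genes. The difference between the medians was -0.17, and it was not tested. It was -0.11 once trends of GC content and exon length were removed and -0.09 over the 45 genes that share no exon bases with another row of the table. Leaving out the first or the second baicalein library lowered the count of small subunit genes that fell. Shares of all tested genes in those fits are not given here, so these losses are not read as a trait of the subunit. With library totals in place of TMM factors the small subunit split was 5 higher and 18 lower.

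The levels were also summed over each subunit. The 49 large subunit genes summed to 2538 and 2538 CPM in the controls and 2152 and 2145 CPM after baicalein, a change of -15.3%. The 29 small subunit genes summed to 1745 and 1748 CPM in the controls and 1684 and 1678 CPM after baicalein, a change of -3.75%. That direction turned when MRPS34, the largest fall, was left out. The other 28 small subunit genes summed to 1607 and 1607 CPM in the controls and 1624 and 1621 CPM after baicalein, a change of 0.962%. They still held MRPS6, the largest rise (means 38.4 CPM in controls and 78.8 CPM after baicalein), and a sum without MRPS6 was not made. Without MRPL16, the largest fall of the large subunit, its change was -14.5%. The ratio of the large to the small subunit sum was 1.454 and 1.452 in the controls and 1.278 and 1.278 after baicalein. The treated libraries lay below the controls in all 3 measures, but 2 libraries against 2 cannot reach an exact two-sided permutation p below 0.333. All 78 genes together took 0.446% and 0.442% of the counts in the controls and 0.370% and 0.369% after baicalein. In RNA from a whole culture, fewer cells of a type and less RNA per cell cannot be told apart.

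Symbols do not always give the place of a protein. In structures of the mammalian ribosome MRPS18A and MRPS30 belong to the large subunit, and the product of MRPS36 is known as a subunit of the oxoglutarate dehydrogenase complex. Assigned by position, 35 of 51 large subunit genes fell (68.6%) and 8 rose (15.7%), with a median of -0.27. By the same assignment 14 of 26 small subunit genes fell (53.8%) and 6 rose (23.1%), with a median of -0.11. The shares over all tested genes were 37.6% and 37.4%. MRPS30 rose from 54.4 and 52.7 CPM in the controls to 67.6 and 64.6 CPM (log2 fold change 0.30, SE 0.05, adjusted p = 7.51e-06 by edgeR), and its groups did not overlap. MRPS36 fell from 13.0 and 12.7 CPM to 10.9 and 11.4 CPM (log2 fold change -0.21, SE 0.08, adjusted p = 0.0237 by edgeR); the call was lost in DESeq2 (adjusted p = 0.146).

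Genes listed for proteins with bacterial counterparts and the other members assigned by position had like medians. Of 45 genes for proteins with bacterial counterparts, 29 fell and 9 rose, with a median of -0.21. Of the other 32 genes, 20 fell (62.5%) and 5 rose (15.6%), with a median of -0.23. These 32 are not all mitochondria-specific: the list holds MRPS18C, but MRPS18A and MRPS18B, also related to bacterial S18, were counted outside it. Of all tested genes, 37.6% fell and 37.4% rose. Their difference was not tested.

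MRPL16 had the largest fall of the large subunit. It encodes the counterpart of a bacterial protein near the peptidyl transferase centre, and the gene lies at chr11:59806135-59810872 on the minus strand (GRCh38). Its level was 56.0 and 52.0 CPM in the controls and 23.8 and 23.7 CPM after baicalein. Both treated libraries were below the controls by more than the spread within either group, and the level was 2.27-fold lower (log2 fold change -1.19, SE 0.06, adjusted p = 1.07e-14 by edgeR). MRPL39 (chr21:25585656-25607517, minus strand), a mitochondria-specific protein, stood at 33.4 and 31.9 CPM in the controls and 20.1 and 19.7 CPM after baicalein. Its groups did not overlap, and it was 1.64-fold lower (log2 fold change -0.71, SE 0.06, adjusted p = 3.34e-10 by edgeR).

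The next falls of the large subunit were those of MRPL35, MRPL12, MRPL51 and MRPL17, the first 2 and the last of them proteins with bacterial counterparts. MRPL35 went from 31.3 and 29.1 CPM to 20.1 and 17.8 CPM, 1.59-fold lower. MRPL12, the protein of the flexible stalk that meets translation factors, went from 103 and 104 CPM to 67.5 and 65.6 CPM, 1.55-fold lower. MRPL51 went from 27.4 and 28.3 CPM to 17.5 and 19.1 CPM, and MRPL17 from 47.4 and 50.1 CPM to 33.1 and 31.3 CPM. Groups apart and a pass of the test were conditions for naming these 4 genes. Their adjusted p by edgeR ran from 1.02e-11 for MRPL12 to 1.89e-08 for MRPL51. The other 29 falls of the large subunit ranged from a log2 fold change of -0.56 for MRPL42, which went from 90.6 and 78.5 CPM to 56.8 and 58.2 CPM, to -0.16 for MRPL27 and MRPL47. The log2 fold change of MRPL12 was -0.64 and moved to -0.34 once trends of GC content and exon length were removed.

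Of the 7 large subunit genes that rose, MRPL23 had the largest fold change and the least reads. It encodes a protein at the exit of the peptide tunnel, and its level was 1.21 and 1.04 CPM in the controls and 1.79 and 1.83 CPM after baicalein (log2 fold change 0.68, SE 0.20, adjusted p = 0.0046 by edgeR). The groups did not overlap, but DESeq2 did not call it (adjusted p = 0.0837). The antisense transcript MRPL23-AS1, which overlaps 2.86% of the exon bases of MRPL23, stood at 0.425 and 0.872 CPM on average in the 2 groups.

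MRPL15, a core protein that binds the large rRNA, rose from 57.5 and 54.6 CPM to 72.2 and 71.8 CPM. MRPL10, which anchors the stalk made of MRPL12, rose from 57.4 and 64.2 CPM to 75.1 and 76.7 CPM (log2 fold change 0.32, SE 0.05, adjusted p = 9.03e-06 by edgeR). The 2 stalk genes thus lay on opposite sides of 0. MRPL45, the protein that holds the ribosome at the inner membrane, rose from 65.9 and 62.9 CPM to 77.5 and 73.6 CPM, and MRPL2, of the core near the catalytic centre, from 33.5 and 37.1 CPM to 42.8 and 39.9 CPM. MRPL3 rose from 134 and 124 CPM to 145 and 154 CPM. In each of these 5 genes the treated libraries lay above both controls, which was a condition for naming them. The rises of MRPL2 and MRPL3 no longer passed with library totals in place of TMM factors (adjusted p = 0.0566 and 0.0501), and that of MRPL2 was also lost without the first baicalein library (0.0535).

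In the central protuberance, the crest of the large subunit that faces the head of the small one, log2 fold changes were -0.36 for MRPL18, -0.32 for MRPL38, -0.28 for MRPL46, -0.23 for MRPL48 and -0.07 for MRPL40. The first 4 passed the test by edgeR and MRPL40 did not (adjusted p = 0.361). MRPL38 stood at 0.10 (adjusted p = 0.00876), on the other side of 0, once trends of GC content and exon length were removed. MRPL48 lost its call in DESeq2 (0.0519) and without the first baicalein library (0.319). MRPL58, known as ICT1, a peptidyl-tRNA hydrolase built into the large subunit, fell from 56.8 and 58.9 CPM to 46.4 and 46.0 CPM (log2 fold change -0.33, SE 0.05, adjusted p = 3.77e-06 by edgeR), with no overlap of the groups.

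**Figure D2:**
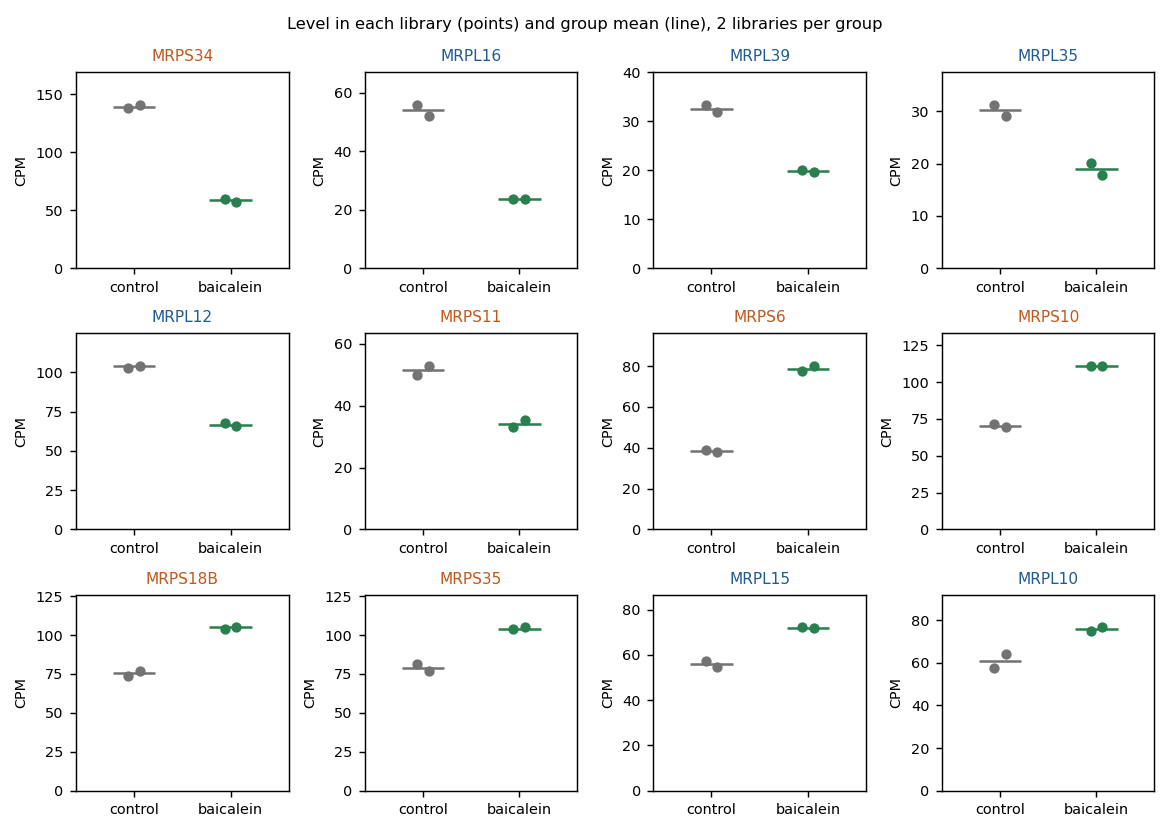
Level in CPM (vertical axes from 0) of the 6 genes with falls and 6 genes with rises shown, in each control and baicalein library (points) with the group mean (line). The points of a group lie close together. The groups do not overlap in any of the 12 genes, which was a condition for naming them. MRPS34 went from 138 and 141 CPM to 60.0 and 56.9 CPM and MRPS6 from 39.1 and 37.7 CPM to 77.5 and 80.1 CPM.

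MRPS34 had the largest fall of all 78 genes. It encodes a mitochondria-specific protein of the small subunit and lies at chr16:1771890-1773155 on the minus strand. The controls had 6521 and 6618 counts of it and the treated libraries 3284 and 2120, or 138 and 141 CPM against 60.0 and 56.9 CPM. Means were 139 ± 1.91 and 58.5 ± 2.21 CPM (SD, n = 2), so the gap between the groups was many times the spread within them. The level was 2.38-fold lower (log2 fold change -1.25, SE 0.04, adjusted p = 5.33e-17 by edgeR).

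The other falls of the small subunit were smaller. MRPS11, a protein of the mRNA-binding platform, went from 49.9 and 52.8 CPM to 33.0 and 35.2 CPM, 1.51-fold lower (log2 fold change -0.59, SE 0.05, adjusted p = 1.46e-09 by edgeR). MRPS28 went from 18.4 and 18.2 CPM to 12.7 and 13.9 CPM, and MRPS7, which nucleates the head of the subunit, from 99.4 and 102 CPM to 77.8 and 76.5 CPM. MRPS26 went from 73.6 and 80.9 CPM to 59.7 and 61.2 CPM and MRPS24 from 60.3 and 61.7 CPM to 47.4 and 49.3 CPM. Groups apart and a pass of the test by edgeR were conditions for naming these 5 genes too. The other 9 falls ranged from a log2 fold change of -0.29 for MRPS2 to -0.11 for MRPS25. The call of MRPS25 was lost without either baicalein library (adjusted p = 0.217 and 0.241), and MRPS2 stood at 0.02 once trends of GC content and exon length were removed.

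MRPS6 had the largest rise of all 78 genes. It encodes the counterpart of bacterial S6, a protein of the platform, and lies at chr21:34073224-34143034 on the plus strand. Its level was 39.1 and 37.7 CPM in the controls and 77.5 and 80.1 CPM after baicalein, 2.05-fold higher (log2 fold change 1.04, SE 0.05, adjusted p = 1.24e-14 by edgeR). The treated libraries were at about the same level, far above both controls. The gene SLC5A3, an inositol transporter on the same strand, shares 273 exon bases with it. They are 6.35% of all 4299 annotated exon bases of MRPS6, whose principal transcript has 990 bases. SLC5A3 rose from a mean of 20.5 to 70.4 CPM (log2 fold change 1.78, adjusted p = 6.31e-18 by edgeR). How reads of the shared bases were split between both genes is not stated in the sources used here, and its part in the value of MRPS6 was not tested.

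MRPS10 (chr6:42206801-42217865, minus strand), a protein of the head of the small subunit with a bacterial counterpart, stood at 71.4 and 69.5 CPM in the controls and 111 and 111 CPM after baicalein. The groups were well apart, and the level was 1.58-fold higher (log2 fold change 0.66, SE 0.04, adjusted p = 4.18e-12 by edgeR). MRPS18B rose from 73.9 and 77.0 CPM to 104 and 105 CPM, and MRPS35, a mitochondria-specific protein, from 81.2 and 76.7 CPM to 104 and 105 CPM. MRPS9 stood at 37.3 and 38.6 CPM and then at 43.5 and 40.3 CPM, the smallest of the rises named by rule. It passed by edgeR (adjusted p = 0.0198) but not by DESeq2 (0.0981) or without the first baicalein library (0.345).

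The 14 genes that did not pass lay between a log2 fold change of -0.13 for MRPL33 and 0.12 for MRPS33. MRPL33 stood at 12.9 and 12.9 CPM in the controls and 12.9 and 10.4 CPM after baicalein (adjusted p = 0.188 by edgeR), so that its treated libraries differed by more than the group means did. MRPS15 stood at 41.9 and 42.5 CPM and then at 42.6 and 42.4 CPM, with overlapping groups.

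Of the 3 human genes related to bacterial S18, 1 passed the test. MRPS18B was 1.39-fold higher (log2 fold change 0.47, SE 0.04, adjusted p = 1.71e-09 by edgeR), with both treated libraries above both controls. MRPS18A stood at 31.1 and 34.2 CPM in the controls and 32.0 and 31.7 CPM after baicalein, and MRPS18C at 17.4 and 15.7 CPM and then 16.9 and 15.7 CPM. The groups of both overlapped, and neither passed the test (adjusted p = 0.596 and 0.818 by edgeR). MRPS18A shares 47.0% of its exon bases with RSPH9 and MRPS18C 40.2% with ABRAXAS1, both on the opposite strand.

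Levels of different genes were compared per length, as CPM per kilobase of the principal transcript (RPKM). The large subunit genes ranged from 1.53 to 101 RPKM in the controls with a median of 35.5, and after baicalein from 2.46 to 87.6 with a median of 28.2. The small subunit genes ranged from 3.86 to 136 RPKM in the controls with a median of 31.9, and after baicalein from 4.18 to 79.6 with a median of 34.5. The order of the 78 genes by mean level was much the same in both groups, with a Spearman correlation of 0.93 over genes, given as a description.

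A few genes changed places in that order. MRPS34 ranked 1 of 78 in the controls, at 135 and 137 RPKM, and 12 after baicalein, at 58.6 and 55.6 RPKM. MRPL12 went from rank 2 to 9 and MRPL16 from 24 to 50. MRPS6 went from rank 34, at 39.5 and 38.1 RPKM, to rank 3, at 78.3 and 80.9 RPKM, and MRPS10 from 40 to 17. The part of the bases shared with SLC5A3 in the rank of MRPS6 was not tested. MRPL3, at 78.4 and 72.7 RPKM in the controls and 85.0 and 90.1 RPKM after baicalein, went from rank 8 to rank 1.

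Over all 4 libraries MRPL24, MRPL12 and MRPL3 had the highest levels of the large subunit and MRPS34, MRPS24 and MRPS7 those of the small subunit. The order differed between the groups. In the controls MRPL12, MRPL24 and MRPL43 led the large subunit and MRPS34, MRPS24 and MRPS7 the small one. After baicalein MRPL3, MRPL24 and MRPL9 led the large subunit, and MRPS6, MRPS24 and MRPS18B the small one. The order over all libraries also depends on the length used. Per length of all annotated exons the first 3 were MRPL12, MRPL41 and MRPL15, and MRPS34, MRPS26 and MRPS16.

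**Figure D3:**
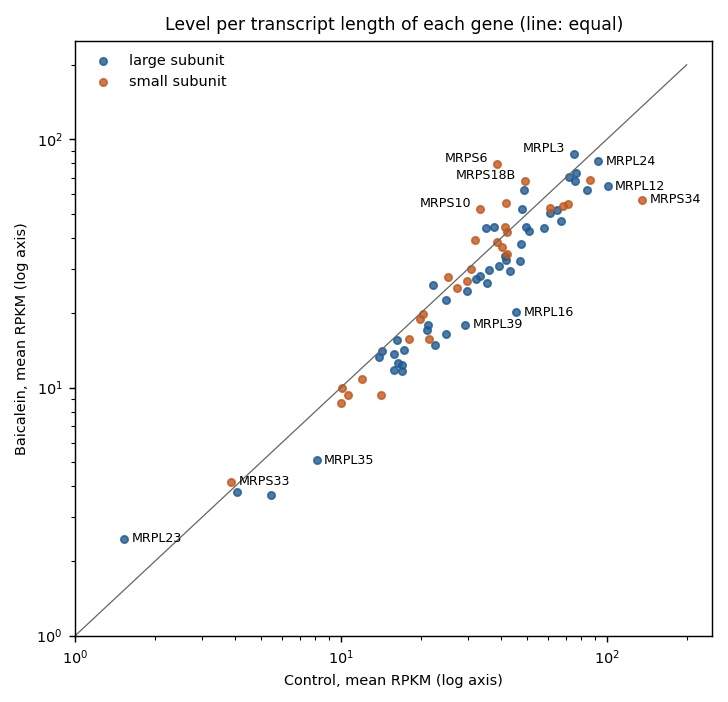
Mean level per transcript length (RPKM, both axes logarithmic) of the 78 genes in the controls (horizontal) and after baicalein (vertical); the line marks equal levels. Most large subunit genes lie somewhat below the line, MRPS34 and MRPL16 lie farthest below it and MRPS6 farthest above it.

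The 5 mitoribosomal proteins with other symbols changed more than the median member. DAP3, a GTP-binding protein of the head of the small subunit, rose from 129 and 129 CPM to 212 and 214 CPM, 1.65-fold (log2 fold change 0.72, SE 0.04, adjusted p = 6.62e-13 by edgeR). The other 4 fell. PTCD3, at the mRNA entrance, had a log2 fold change of -0.45, CHCHD1 of -0.66, and AURKAIP1 and the large subunit protein GADD45GIP1 of -0.57 each, with adjusted p by edgeR of 9.25e-08, 8.52e-11, 3.03e-10 and 3.22e-09. CHCHD1 went from 49.8 ± 0.227 to 31.5 ± 0.121 CPM (mean ± SD, n = 2), and the groups of all 5 genes did not overlap. With these 5 genes the medians by position were -0.28 over 52 large subunit genes and -0.14 over 30 small subunit genes.

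Lists of genes that serve the mitochondrial ribosome had medians near or above 0. Of 28 genes for assembly and rRNA modification, 11 rose (39.3%) and 13 fell (46.4%), near the 37.4% and 37.6% of all tested genes, with a median of -0.02. Among those that fell were the rRNA methyltransferases MRM1 (log2 fold change -0.85) and MRM2 (-0.57) and the assembly GTPase MTG1 (-0.69). Of 17 genes for translation factors and mRNA handling, 8 rose (47.1%) and 6 fell (35.3%), beside the same 37.4% and 37.6%, with a median of 0.13. LRPPRC, which stabilises mitochondrial mRNAs, rose from 202 and 195 CPM to 376 and 376 CPM, whereas the elongation factors TUFM and TSFM fell, TUFM from 314 and 337 CPM to 221 and 210 CPM and TSFM from 80.1 and 77.4 CPM to 49.7 and 45.4 CPM.

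Of 20 regulators of mitochondrial DNA expression and biogenesis, 11 rose and 5 fell, beside 37.4% and 37.6% of all tested genes, with a median of 0.26. PPRC1, a coactivator of the PGC-1 family, rose from 80.3 and 84.9 CPM to 137 and 138 CPM. GABPB1, a subunit of the factor that binds the ETS core shown above, rose from 26.5 and 26.6 CPM to 44.5 and 43.5 CPM, and MYC rose from 80.2 and 86.5 CPM to 128 and 139 CPM. TFAM, which packages and transcribes mitochondrial DNA, fell from 111 and 103 CPM to 73.6 and 73.3 CPM. NRF1 did not pass the test (log2 fold change 0.15, adjusted p = 0.0767 by edgeR).

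Among the RNAs that the organelle itself makes, more rose than fell. Of the 13 mitochondrially encoded mRNAs, 7 rose (53.8%), 2 fell (15.4%) and 4 did not pass, with a median log2 fold change of 0.12. Over all tested genes, 37.4% rose and 37.6% fell. MT-CYB rose from 4910 and 5090 CPM to 7780 and 7360 CPM and MT-CO3 fell from 4510 and 5130 CPM to 3400 and 3170 CPM. Of the rRNAs, whose poly(A) tails are short, so that poly(A) selection samples them poorly, MT-RNR2 of the large subunit rose from 5340 and 4650 CPM to 9310 and 9120 CPM (log2 fold change 0.88, adjusted p = 1.92e-07 by edgeR). MT-RNR1 of the small subunit stood at 1820 and 1330 CPM and then at 2100 and 2100 CPM (adjusted p = 0.223). The cytosolic ribosomal protein genes lay on the other side of 0 from the mitoribosomal ones, with a median of 0.15. Of these 86 genes, 56 were higher (65.1%) and 9 lower (10.5%), beside the same 37.4% and 37.6% of all tested genes.

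**Figure D4:**
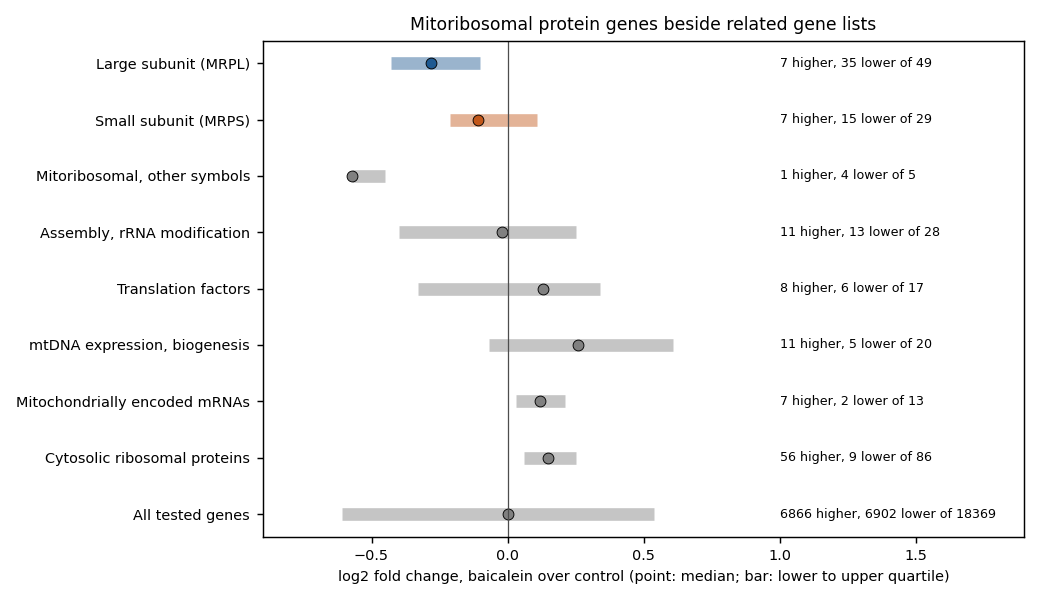
Median log2 fold change (point) with the lower and upper quartiles (bar) of the mitoribosomal protein genes and related lists, beside all 18369 tested genes. The large subunit median of -0.28 lies below 0 with its whole bar, whereas the cytosolic ribosomal protein bar lies above 0.

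Many mitoribosomal protein genes start head to head with another gene. In the GENCODE 29 annotation 28 of the 78 have a protein-coding neighbour on the opposite strand that starts within 1000 bases, among them MRPL46 and MRPS11, which are neighbours of each other with starts 34 bases apart. In 12 of these 28 cases the starts overlap, so that the 2 genes cover some of the same bases. The part of this overlap in the values below was not tested. Both genes were tested in 27 of these pairs (that of MRPL46 and MRPS11 counted from each side). The neighbour fell in 16, rose in 8 and did not pass in 3, where 41.9% of all tested protein-coding genes fell and 39.2% rose. Both genes fell in 14 pairs, both rose in 1, and in 4 they were called in opposite directions; with 64.1% of the members lower, these pair counts were not set against the count that unrelated pairs would give. The correlation of the log2 fold changes over pairs was 0.32, as a description. Members with such a neighbour had a median of -0.26, and the 50 without one had -0.20.

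The sizes within a pair often differed. SKA3 and EME1, genes of mitosis and DNA repair, had log2 fold changes of -1.95 and -1.72, whereas their neighbours MRPL57 and MRPL27 had -0.38 and -0.16. NCAPD2, a condensin subunit, had -1.21 beside -0.61 for MRPL51. MRPS34 was the reverse case, since its neighbour EME2, which starts 52 bases away, had -0.34. TWNK, the mitochondrial DNA helicase, rose by 0.59 on the log2 scale beside MRPL43, which fell by 0.43. PNPLA7 rose by 0.76 beside MRPL41, which fell by 0.53 (-0.05 without trends of GC content and exon length, adjusted p = 0.247 by edgeR), and MITD1 by 0.47 beside MRPL30, which fell by 0.31. In the remaining pair of opposite calls MRPL10 rose and LRRC46 fell (adjusted p = 0.0379 by edgeR).

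**Figure D5:**
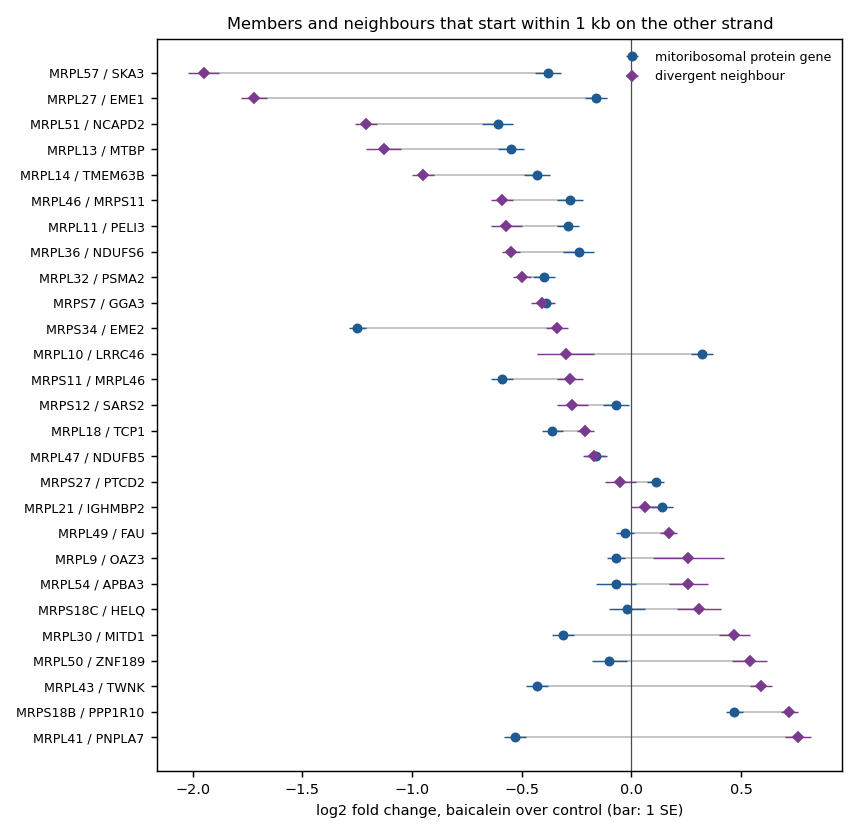
Log2 fold change, baicalein over control, of each mitoribosomal protein gene (circle) and of the gene that starts within 1000 bases on the other strand (diamond), for 27 pairs ordered by the neighbour; bars are 1 SE. The 4 neighbours with falls of over 2-fold stand at the top, far from their partners, and MRPS34 lies far below EME2.

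Exon bases shared with another row of the table were found for 33 of the 78 genes, on the same strand for 10 of them and over 20% of the exon bases for 9. Whether counting used strand is not stated in the sources used here, so reads of such genes may be split or left out. MRPL51 shares 31.3% of its exon bases with NCAPD2, and MRPL43 32.7% with SEMA4G, which had a log2 fold change of -1.27. MRPL38 shares 37.5% and MRPL53 45.2% with a row on the same strand, the latter with CCDC142 (-0.47). MRPS34, MRPL16, MRPL39 and MRPS10 share none. Of the 45 genes without shared bases, 29 fell (64.4%) and 10 rose (22.2%), with a median of -0.23. The shares over all tested genes were 37.6% and 37.4%. Counts of MRPL45 and MRPS31 are uncertain for another reason, since the table also holds their pseudogenes MRPL45P2 (log2 fold change 0.62) and MRPS31P5 (0.68), with which reads may be shared.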

How the data were processed

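Poly(A) RNA of 4 T47D libraries was measured. The values deposited by the authors are raw whole-number counts, 1 per gene and library, for 20515 genes; the smallest row total was 10, and 0 columns belong to other samples. Tools listed in the submitters' processing notes are STAR 2.7.8a, RSEM 1.3.3, DESeq2 1.34, FastQC 0.11.8 and cutadapt 2.3, with the build GRCh38. The annotation release, the use of strand and any rounding of RSEM estimates are not stated in the sources used here. Sample descriptions tied columns to samples, and titles gave the groups.

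Counts were tested with edgeR 4.0.16 (R 4.3.3; TMM factors, robust quasi-likelihood F test, no covariates). The filter on low counts (at least 10, and 15 in total) left 18369 genes, over which p-values were adjusted by Benjamini-Hochberg, and the code was tested on simulated data. Standard errors are the log2 fold change divided by the square root of F. Replicates differed by more than sampling noise (mean chi-square per gene 9.61 in controls and 2.43 after baicalein). The medians were 1.38 in controls and 0.7 after baicalein, and a median has a lower reference value under sampling noise than a mean. The members and lists were chosen with earlier results of these data known. The lists hold all 5 mitoribosomal proteins with other symbols, assembly factors, translation factors, regulators, mitochondrially encoded RNAs and cytosolic ribosomal proteins.

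The text names, per subunit, the 6 largest rises and 6 largest falls with an adjusted p under 0.05 and groups apart, the 3 highest levels per length, a fixed set (MRPS18A, MRPS18B, MRPS18C, MRPS30, MRPS36, MRPL58 and MRPL12), the proteins with other symbols, up to 3 genes per related list by smallest adjusted p, and members with overlapping genes. Other genes in the text were picked with their values in view, MT-CO3 among them. Of the mitochondrially encoded mRNAs only MT-CYB was named by the rule, and not every member with overlapping genes is named. Transcripts and gene positions came from GENCODE release 29 and promoters from RefSeq. Alternatives were 3 other scalings, 2 filters, DESeq2 1.42.0, limma-voom (limma 3.58.1), a 1.5-fold change test, a threshold of 0.01, a replicate block, a GC and length correction, subunits by position and leaving out each library.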

Additional observations from a re-analysis of the deposited data

How the results depend on the processing

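The fall of the large subunit median and of the small subunit median kept its direction under every scaling, filter, tool and left-out library run, and 41 of the 64 called members kept call and direction in all settings but the test against a 1.5-fold change. With library totals alone, which moved the median of all genes by -0.104 on the log2 scale, 9 members were higher (4 of the large subunit) and the medians were -0.38 and -0.21 for the large and small subunit. At a threshold of 0.01, 9 small subunit genes were lower. In the test against a 1.5-fold change 3090 genes were higher and 3581 lower, with 2 and 3 members, 0 and 2 of the large subunit and 2 and 1 of the small subunit. After the correction for GC content and exon length (17867 genes) the large subunit median was -0.21 and the difference between subunits -0.11. Leaving out 1 library at a time, which leaves a lone sample assumed to vary like the other group, gave 8 to 14 lower small subunit genes, 31 to 36 lower large subunit genes and 40 to 50 lower members. Over the 45 members without shared exon bases (29 of the large and 16 of the small subunit), an alternative chosen after seeing the data, 29 were lower, 20 of the large and 9 of the small subunit, and the difference was -0.09; fewer genes are counted there by construction. The replicate numbers are only shared numbers, with a correlation of deviations of 0.0136, and with the replicate block 14 members were higher and 50 lower, so that no member call changed. DESeq2 called 10 higher and 45 lower. Directions turned for 11 genes after the correction for GC content and exon length. Of these, MRPL4 (0.13, adjusted p = 0.00358) and MRPL38 (0.10, 0.00876) were called lower before and higher after it, MRPL36 (0.09), MRPS2 (0.02) and MRPS27 (-0.02) lost their calls, MRPS12 (0.14) and MRPL40 (0.15) became called, and MRPL54 (0.14), MRPS18A (0.09), MRPL49 (0.06) and MRPS15 (-0.01) were called neither way. The other turns were of genes not called, for which leaving out 1 library gave -0.00 to 0.03 for MRPS15, -0.07 to 0.02 for MRPL49, -0.06 to 0.05 for MRPS22, -0.09 to 0.05 for MRPS18C, -0.11 to 0.04 for MRPS18A and -0.30 to 0.01 for MRPL33. MRPS15 also turned with upper-quartile factors (-0.02) and library totals (-0.09), and MRPS22 with the 50-count filter (0.00). The cause of these changes was not tested. The summed small subunit level changed by -3.75% with MRPS34 and by 0.962% without it, a setting chosen after seeing the data. That setting kept MRPS6, the largest rise, and a sum without MRPS6 was not made. At 37.2 to 54.7 counts per CPM, depth limits MRPL23 most.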
